A study of Homo sapiens with 4 samples.

Results

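The genes described here encode the subunits of the proteasome, the protease that degrades ubiquitin-tagged proteins. They were taken as the genes whose symbol is PSMA, PSMB, PSMC or PSMD followed by digits only and that have a probe set assigned to 1 gene alone. This gave 34 genes of 19775 with such a probe set. Of these, 17 were counted to the core particle (PSMA and PSMB) and 17 to the regulatory particle (PSMC and PSMD). The latter include PSMD5, PSMD9 and PSMD10, which encode chaperones that assemble the particle. Together the 34 genes have 61 probe sets, and each gene was read from the one with the highest mean signal over the arrays. The study used A549, a lung adenocarcinoma cell line, and H1299, another line of non-small cell lung cancer. Each line received either scramble siRNA, the control, or siRNA against hMOF, the acetyltransferase of histone H4 encoded by KAT8, by lipofection. All cultures grew in DMEM with 10% serum. There are 4 Affymetrix arrays, 1 for each line under each siRNA. How many cultures or siRNA sequences stand behind an array is not given in the sources used here.

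The core particle is a barrel of stacked rings. Its outer rings are made of alpha subunits, which gate the entry, and its inner rings of beta subunits, of which some carry the proteolytic sites. The regulatory particle caps the barrel: a ring of ATPases encoded by PSMC genes unfolds substrates, and PSMD subunits bind ubiquitin, remove it and hold the complex together. Interferon induces alternative catalytic subunits, encoded by PSMB8, PSMB9 and PSMB10, which form the immunoproteasome and alter the peptides made for antigen presentation. When proteasome activity is short, the transcription factor encoded by NFE2L1 is known to raise the subunit genes together, through antioxidant response elements.

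The labels were checked on KAT8 first. Its signal fell from 402 to 106 in A549 and from 241 to 61.8 in H1299 with hMOF siRNA (mean log2 −1.62 ± 0.07, SD, n = 2 lines; limma adjusted p = 0.0288). Its dim second probe set, 214885_at, went from 61.6 to 51.6 and from 61.7 to 39.8. Median signals of the arrays lay between 73.3 and 75.4. RNA integrity was read from the 3'/5' signal ratio of ACTB, which stood at 3.11 (scramble) and 2.78 (hMOF siRNA) in A549 and at 2.89 and 2.64 in H1299. That of GAPDH lay between 1.09 and 1.20. The ACTB ratio was lower with hMOF siRNA in both lines, and its part in the results below was not tested. All 5 measured markers of A549 were higher in A549 by limma. Of the 3 H1299 markers 2 were higher in H1299, while CDH2 was higher in A549. Summed over 5 markers of leukocytes and endothelium, signals were between 396 and 503 on the arrays. In such an extract of a whole culture, more RNA per cell and more cells with that RNA cannot be told apart.

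Most proteasome genes were bright on all arrays. PSMA8, an alpha subunit gene known from the testis, stood at 36.3 and 40.8 in A549 and at 36.6 and 41.6 in H1299 (scramble and hMOF siRNA, the order kept throughout). It lay below the minimum mean signal of 78.1, so 33 of the 34 genes were tested, 16 of the core and 17 of the regulatory particle. Outside the immunoproteasome genes and PSMA8, the lowest signal of a core gene was 2537, for PSMA5 in A549 with scramble. The lowest of a regulatory gene was 247, for PSMD3 in H1299 with hMOF siRNA. Among the immunoproteasome genes the lowest was 159, for PSMB8 in H1299 with scramble.

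**Figure D1:**
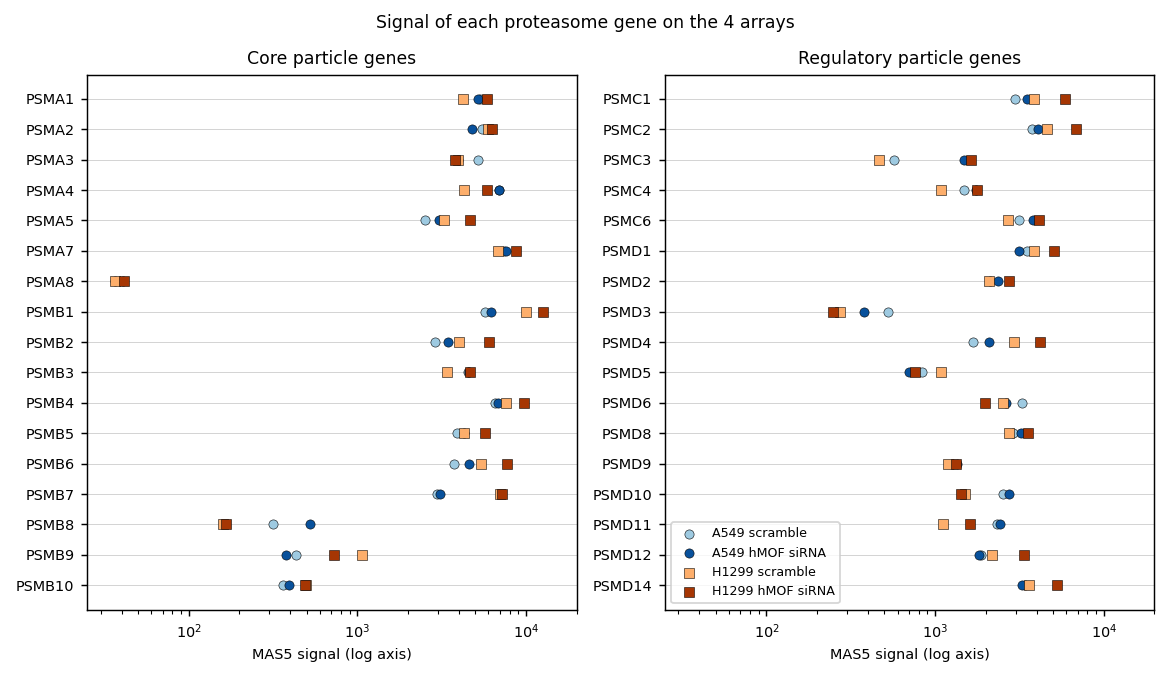
MAS5 signal (log axis) of the 34 proteasome genes on the 4 arrays, 1 point per array, with core particle genes on the left and regulatory particle genes on the right. The hMOF siRNA points of PSMC3, at 1481 and 1632, lie apart from its scramble points at 570 and 464, and PSMA8 lies alone at the low end.

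The first comparison set hMOF siRNA against scramble within each line. PSMC3, which encodes an ATPase of the regulatory particle, rose in both lines, and it was the only one of the 33 genes to pass the test. Most other genes had ratios near 0 in A549 and modestly above 0 in H1299. Ratios are given as log2(signal + 29.06), where the offset damps ratios of dim genes. Over both lines, with line as a block, limma called 1 of 33 proteasome genes higher and 0 lower, against 1.16% higher and 2.41% lower among all 12830 genes tested. At an unadjusted p under 0.05 there were 4 of 16 core and 7 of 17 regulatory genes, against 23.8% of all genes, so the core count is near that background.

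PSMC3 stood at 570 and 1481 in A549 and at 464 and 1632 in H1299. Both hMOF siRNA arrays lay above both scramble arrays. The rise was 2.52-fold in A549 and 3.37-fold in H1299 (mean log2 1.54, n = 2 lines, limma adjusted p = 0.0288). The limma SE of that mean, 0.14, is moderated with the variance of all genes. Between the lines the log2 ratio had an SD of 0.30. PSMC3 was thereby the only proteasome gene at least 2-fold higher in either line, a size reached by 0.717% of all genes in A549 and 1.22% in H1299. Its ratio lay at percentile 99.8 of all genes in A549 and 99.9 in H1299. Only 1 probe set, 201267_s_at, reads PSMC3 alone, so no other probe set bears on this rise.

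The other measured ATPase genes, PSMC1, PSMC2, PSMC4 and PSMC6, encode further members of the same ring. None passed the test, although all lay above 0 in both lines. PSMC4 stood at 1489 and 1753 in A549 and at 1080.4 and 1783 in H1299 (log2 0.23 and 0.71; limma adjusted p = 0.160). The H1299 hMOF siRNA array was the highest and the H1299 scramble array the lowest. PSMC6 went from 3129 to 3786 in A549 and from 2723 to 4134 in H1299 (0.27 and 0.60; limma adjusted p = 0.137). PSMC1 stood at 2981 and 3493 in A549 and at 3867 and 5866 in H1299 (0.23 and 0.60). PSMC2 stood at 3768 and 4099 in A549 and at 4593 and 6815 in H1299 (0.12 and 0.57). For both genes the H1299 hMOF siRNA array stood above the other 3. The 4 ATPase genes without PSMC3 had medians of 0.23 in A549 and 0.60 in H1299. PSMC3 thus differed from the other genes of its ring by size, while the H1299 ratio exceeded the A549 ratio in all 5.

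The start regions of these 5 ATPase genes are shown because they are the genes of 1 ring and PSMC3 alone was called. Each runs from 120 bases before the annotated start to 20 bases from it on, 5′ to 3′ in the direction of the gene (RefSeq, GRCh38.p14). Capitals mark matches, on either strand, to the CCAAT box, to CCGGAAG, the core recognised by ETS factors, or to TGACNNNGC, the antioxidant response element.
PSMC1, chr14:90256433-90256572, plus strand: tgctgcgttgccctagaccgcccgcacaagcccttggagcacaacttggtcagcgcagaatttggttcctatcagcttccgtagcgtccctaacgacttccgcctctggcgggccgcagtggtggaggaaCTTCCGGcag
PSMC2, chr7:103347523-103347662, plus strand: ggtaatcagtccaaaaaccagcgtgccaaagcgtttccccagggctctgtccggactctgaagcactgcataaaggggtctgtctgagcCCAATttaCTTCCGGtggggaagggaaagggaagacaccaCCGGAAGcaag
PSMC3, chr11:47426420-47426559, minus strand: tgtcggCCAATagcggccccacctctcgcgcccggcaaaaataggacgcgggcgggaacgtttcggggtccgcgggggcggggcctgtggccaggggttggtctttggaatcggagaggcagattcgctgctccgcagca
PSMC4, chr19:39971045-39971184, plus strand: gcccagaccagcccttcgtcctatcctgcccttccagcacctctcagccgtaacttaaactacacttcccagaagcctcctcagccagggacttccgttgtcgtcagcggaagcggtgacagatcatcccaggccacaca
PSMC6, chr14:52707080-52707219, plus strand: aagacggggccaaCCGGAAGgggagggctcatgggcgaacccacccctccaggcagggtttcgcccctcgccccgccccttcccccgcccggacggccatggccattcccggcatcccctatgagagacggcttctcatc

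In these windows PSMC3 has a CCAAT box, and no ETS core or antioxidant response element. PSMC1, PSMC2 and PSMC6 have ETS cores, PSMC2 with a CCAAT box as well, and PSMC4 has none of the motifs. A match of PSMC4 to the antioxidant response element lies at positions 27 to 35 from the start, outside the stretch shown. Of the ATPase genes shown, PSMC4 alone has such a match in the full windows described next, and PSMC3 has none. The motifs were then counted in full windows of 250 bases before and 50 bases from the start on, which the table held for 29 proteasome genes. PSMA8 was left out of the search, and PSMA7, PSMB1, PSMB6, PSMB7 and PSMD4 had no entry. TGACNNNGC occurred in 9 of the 28 genes searched, 3 of 12 core and 6 of 16 regulatory genes. That was 27.3% of their 33 windows, against 13.4% of all 35116 windows. CCGGAAG occurred in 8 of 16 regulatory and 0 of 12 core genes, 24.2% of their windows against 10.3% of all. CCAAT was found in 15 of the 28 genes, 45.5% of windows against 34.6%. No matches of different motifs overlapped. A match describes letters only, and the difference in these shares was not tested.

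The PSMD genes encode other subunits of the regulatory particle and, in PSMD5, PSMD9 and PSMD10, chaperones that assemble it. The 12 measured PSMD genes had medians of 0.01 in A549 and 0.39 in H1299. Without the chaperone genes the medians were −0.04 and 0.40. PSMD4, a receptor for ubiquitin chains, stood at 1678 and 2084 in A549 and at 2951 and 4183 in H1299 (0.31 and 0.50; limma adjusted p = 0.127). Both H1299 arrays lay above both A549 arrays. Its probe sets with enough signal were 3, and their ratios ran from 0.31 to 0.37 in A549 and from 0.48 to 0.56 in H1299. PSMD2 and PSMD1 encode the large scaffold subunits of the base. PSMD2 was at 0.16 and 0.39, and PSMD1 at −0.16 and 0.40. PSMD14, the enzyme that removes ubiquitin from substrates, stood at 3398 and 3274 in A549 and at 3607 and 5277 in H1299 (−0.05 and 0.55). The H1299 hMOF siRNA array was the one high array for this gene.

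Lid genes differed in sign. PSMD12 had ratios of −0.04 and 0.62, PSMD11 of 0.07 and 0.52, and PSMD8 of 0.16 and 0.38. PSMD3 stood at 527 and 377 in A549 and at 274 and 247 in H1299, with ratios of −0.46 and −0.13. PSMD6 stood at 3280.4 and 2644 in A549 and at 2537 and 1977 in H1299, with ratios of −0.31 and −0.36 (mean −0.33 ± 0.03, SD, n = 2 lines; limma adjusted p = 0.157). Each hMOF siRNA array of PSMD3 and PSMD6 lay below the scramble array of its line, against the direction of most subunits, and neither gene passed. The second probe set of PSMD12, 202353_s_at, was at 0.16 in A549 and −0.06 in H1299, so the H1299 value of this gene depends on the probe set.

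PSMD5, PSMD9 and PSMD10 encode chaperones that assemble the base and leave it before the particle is complete. Their ratios were −0.25 and −0.50 for PSMD5, 0.06 and 0.15 for PSMD9, and 0.11 and −0.08 for PSMD10. PSMD5 stood at 836 and 699 in A549 and at 1091 and 762 in H1299, with both hMOF siRNA arrays below both scramble arrays (limma adjusted p = 0.157). A dimmer PSMD9 probe set, 209334_s_at, was at −0.52 and −0.39. None of the 3 chaperone genes was 1.25-fold higher in either line.

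In the core particle, the constitutive genes, the PSMA genes and PSMB1 to PSMB7, had median ratios of 0.05 (A549) and 0.42 (H1299) over 13 genes. In H1299, 12 of them lay above 0 and PSMA3 was at −0.06. Among the alpha subunit genes PSMA5 had the highest mean ratio, and it stood at 2537 and 3069 in A549 and at 3251 and 4679 in H1299 (0.27 and 0.52; limma adjusted p = 0.142). Its dim second probe set, 230300_at, was on the other side of 0, at −0.38 and −0.18. PSMA1, PSMA4 and PSMA7 were close to 0 in A549, at −0.03, −0.0024 and 0.04, and at 0.47, 0.44 and 0.36 in H1299. The 3 probe sets of PSMA1 gave between −0.03 and 0.09 in A549 and between 0.47 and 0.51 in H1299. The second PSMA7 probe set, 216088_s_at, was at 0.29 and 0.52, so its A549 value near 0 depends on the probe set. PSMA2 and PSMA3 stood apart at −0.20 and 0.09 and at −0.39 and −0.06. PSMA3 stood at 5184 and 3937 in A549 and at 3938 and 3774 in H1299, where the A549 scramble array was the one high array. A second PSMA3 probe set just above the signal minimum, 237300_at, was at −0.07 in A549 and 0.44 in H1299. The sign of PSMA3 in H1299 thus depends on the probe set.

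Of the noncatalytic beta subunit genes, PSMB2 was at 0.26 and 0.58, PSMB1 at 0.12 and 0.34, PSMB3 at 0.01 and 0.44 and PSMB4 at 0.06 and 0.36. Other PSMB2 probe sets gave 0.03 and 0.09 (201404_x_at) and −0.42 and 0.41 (238425_at). The catalytic genes PSMB5, PSMB6 and PSMB7 encode the chymotrypsin-like, caspase-like and trypsin-like sites. PSMB6 stood at 3748 and 4589.9 in A549 and at 5382 and 7746 in H1299 (0.29 and 0.52; limma adjusted p = 0.133). PSMB5 stood at 3924 and 4292 in A549 and at 4278 and 5746 in H1299 (0.13 and 0.42). PSMB7 had nearly equal signals under both siRNAs, at 2971 and 3080.3 in A549 and at 7015 and 7258 in H1299 (0.05 and 0.05). In these 3 genes the H1299 hMOF siRNA array was the highest, and for PSMB7 both H1299 arrays were close. A dim second PSMB7 probe set, 244801_at, was at −0.23 in A549 and 0.02 in H1299.

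The immunoproteasome genes did not share one pattern. PSMB8, which replaces PSMB5, stood at 315 and 527 in A549 and at 159 and 167 in H1299. Its ratio was 0.69 in A549 and 0.06 in H1299 (limma adjusted p = 0.291). Both A549 arrays were above both H1299 arrays. PSMB9, which replaces PSMB6, stood at 433 and 375 in A549 and at 1073 and 726 in H1299, with ratios of −0.19 and −0.55 (limma adjusted p = 0.192). PSMB10, which replaces PSMB7, stood at 364 and 395 in A549 and at 495 and 490.5 in H1299, with ratios of 0.11 and −0.01. In PSMB9 and PSMB10 both H1299 arrays lay above both A549 arrays. None of the 3 passed the test.

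**Figure D2:**
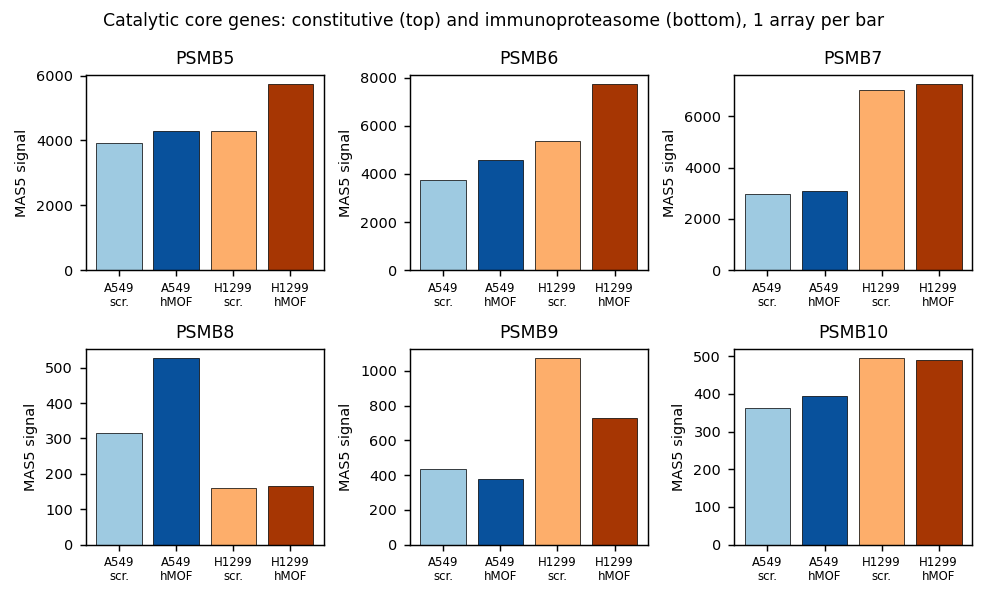
MAS5 signal of the 3 constitutive catalytic genes (top) and the 3 immunoproteasome genes (bottom), with 1 bar per array and no replicates. PSMB8 is highest on the A549 hMOF siRNA array at 527, whereas PSMB9 is highest on the H1299 scramble array at 1073.

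The responses of both lines were set side by side next. Across the 16 core genes the median ratio was 0.06 in A549 and 0.36 in H1299, and across the 17 regulatory genes 0.11 and 0.50. Over all genes tested it was −0.02 and −0.01. At a size of at least 1.25-fold, a value chosen after the ratios were seen, 2 of 33 genes were higher in A549, PSMB8 and PSMC3, against 9.96% of all genes. In H1299 it was 22 of 33, 10 core and 12 regulatory genes, against 14.3% of all genes. None of these 22 was an immunoproteasome or chaperone gene. At least 1.25-fold lower were PSMA3 and PSMD3 in A549, 2 of 33, against 16.0% of all genes. In H1299 they were PSMB9, PSMD5 and PSMD6, 3 of 33, against 18.1% of all genes. With 1 array pair per line these counts have no test. After quantile normalization 6 genes were 1.25-fold higher in A549 and 19 in H1299. The medians in A549 and H1299 were then 0.14 and 0.32 for core and 0.16 and 0.47 for regulatory genes. Loess on signal gave 0.12 and 0.31 for core and 0.15 and 0.47 for regulatory genes. The core medians of the lines thus lay closer together under both. Without _x_at probe sets the core medians were 0.10 and 0.39.

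The H1299 ratio exceeded the A549 ratio in 12 of 16 core and 14 of 17 regulatory genes, against 53.1% of all genes. The median difference was 0.29 for core and 0.32 for regulatory genes, and 0.02 for all genes. It was largest for PSMD12 at 0.66, PSMD14 at 0.60, PSMD1 at 0.56 and PSMA1 at 0.50, and in the other direction for PSMB8 at −0.63. The second PSMD12 probe set, 202353_s_at, was at 0.16 in A549 and −0.06 in H1299, so the PSMD12 difference depends on the probe set. The 2 lines can be compared only by these sizes, since 4 arrays leave no spread to test a difference of responses.

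**Figure D3:**
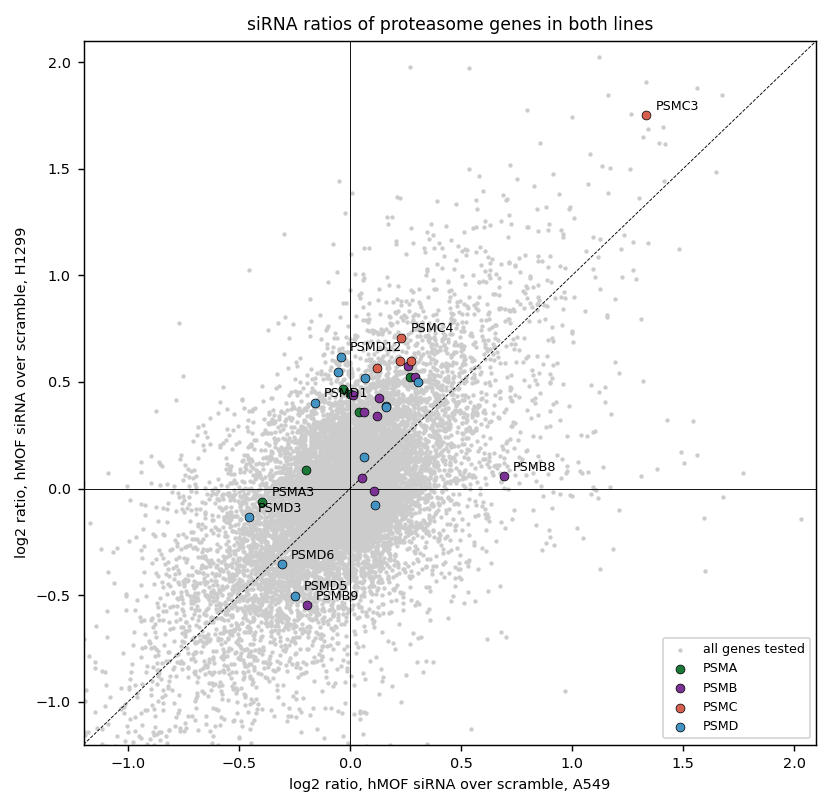
Log2 ratio of hMOF siRNA over scramble in A549 (horizontal) and H1299 (vertical) for the 33 proteasome genes tested, coloured by family, over all 12830 genes in grey; grey points beyond the axes are not drawn, and the dashed line marks equal ratios. PSMC3 lies alone at 1.33 and 1.75, most genes lie above the dashed line, and PSMB8 lies far below it.

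The pathway around the proteasome was read from a list of 45 genes in 7 roles, of which 37 were measured. With hMOF siRNA, 1 of these 37 rose and 1 fell by limma, against 1.16% and 2.41% of all genes, so these counts are near the background. NFE2L1, the transcription factor gene named above, rose from 1150 to 1946 in A549 and from 1023 to 2145 in H1299 (log2 0.74 and 1.05; mean 0.90 ± 0.21, SD, n = 2 lines; limma adjusted p = 0.0434). Both hMOF siRNA arrays lay above both scramble arrays. All 3 of its probe sets gave like values, between 0.67 and 0.75 in A549 and between 1.01 and 1.08 in H1299. PSME1, which encodes a subunit of the interferon-inducible activator that caps the core particle in place of the regulatory particle, fell from 4209 to 2494 in A549 and from 2826 to 1268 in H1299. Its log2 ratios were −0.75 and −1.14 (mean −0.94 ± 0.28, SD, n = 2 lines; limma adjusted p = 0.0454). Both hMOF siRNA arrays lay below both scramble arrays. The call on PSME1 was lost with no signal minimum (limma adjusted p = 0.0516), and over the other 9 alternatives with the block it held.

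The other 35 measured genes did not pass. NGLY1, which encodes an enzyme that removes sugar chains from proteins, was at −0.27 and −0.02. NFE2L2, a relative of NFE2L1, was at −0.44 in A549 and 0.26 in H1299. ADRM1, a ubiquitin receptor of the regulatory particle whose symbol falls outside the family names, stood at 1361 and 1444 in A549 and at 2264 and 3948 in H1299 (0.08 and 0.79; limma adjusted p = 0.261). Both H1299 arrays of ADRM1 lay above both A549 arrays. UCHL5, a deubiquitinase that binds it, was at −0.35 and 0.14. Among assembly factors, PSMG4 was at 0.46 and 0.34 and PAAF1 at −0.31 and −0.24. PSME4, a nuclear activator of the core particle, was at −0.09 and 0.45. PSME3, another nuclear activator, was at −0.38 and −0.63 on its brightest probe set and at 0.12 and 0.39 on the next, 209853_s_at. Of its 4 probe sets 2 were below 0 in both lines and 2 above. Of the genes for substrate delivery, UFD1 was at 0.32 and 0.62, VCP, the segregase, at 0.13 and 0.61, and UBQLN4 at −0.59 and −0.47. UBB, a ubiquitin gene, was at −0.13 and 0.04, and UBA1, the ubiquitin-activating enzyme, at 0.03 and −0.02. Among genes of antigen processing, IRF1 was at −0.20 and −0.59 and TAP2 at 0.20 and 0.28. The second TAP2 probe set, 225973_at, was on the other side of 0, at −0.33 and −0.09. NFE2L2, PSME3 and VCP were picked for mention after their values were seen.

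**Figure D4:**
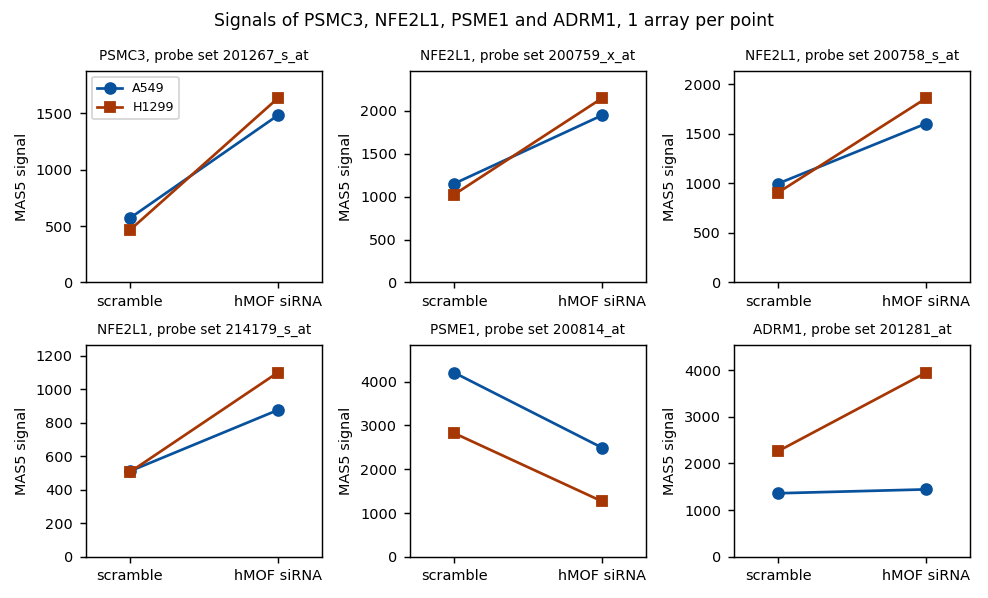
MAS5 signal of PSMC3, of the 3 NFE2L1 probe sets, of PSME1 and of ADRM1 with scramble and hMOF siRNA, 1 point per array, A549 as circles and H1299 as squares. PSMC3 and NFE2L1 are higher and PSME1 is lower with hMOF siRNA in both lines, and ADRM1 is higher in H1299, at 2264 and 3948.

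Finally, both lines were compared under each siRNA, with the siRNA as block in the fit. Higher in H1299 were 6 of 10 beta subunit genes, and 4 regulatory genes and PSMB8 were higher in A549. Of 16 core genes, limma called 7 higher in H1299 and 1 higher in A549. Of 17 regulatory genes it called 3 and 4. Among all genes tested 25.1% were called higher in H1299 and 27.3% higher in A549, so the regulatory counts are near that background. The median ratio of H1299 over A549 was 0.17 under scramble and 0.41 under hMOF siRNA for core genes, and −0.08 and 0.14 for regulatory genes. Over all genes it was −0.04 and −0.02. These ratios use the same arrays as the siRNA ratios above and are no separate evidence on them.

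PSMB7 had the largest difference toward H1299, with 2971 and 3080.3 in A549 against 7015 and 7258 in H1299. It was 2.35-fold higher in H1299 (mean log2 1.23 ± 0.0021, SD, n = 2 siRNAs; limma adjusted p = 0.00107). PSMB9 followed at 2.11-fold (1.08 ± 0.25; limma adjusted p = 0.00303). PSMB1 was 1.89-fold higher in H1299, at 5682 and 6182 in A549 and at 9956 and 12628 in H1299. The dim second PSMB7 probe set, 244801_at, was at 0.51 under scramble and 0.77 under hMOF siRNA. With probe sets averaged PSMB7 was at 0.93, below PSMB9 at 1.08 and PSMB1 at 1.07. The rank of PSMB7 thus depends on the probe set. PSMB2, PSMB6, PSMA5 and PSMB10 were also called, at mean log2 values of 0.64, 0.63, 0.48 and 0.35. Of the other PSMB2 probe sets, 201404_x_at had the opposite sign, at −0.14 under scramble and −0.09 under hMOF siRNA. The dimmer 238425_at was at 0.37 and 1.21. With its probe sets averaged PSMB2 was at 0.44 and still called (limma adjusted p = 0.0428). The PSMB10 call (limma adjusted p = 0.0485) was lost under 3 of the 10 alternatives that kept the block, with adjusted p up to 0.0613. The PSMA5 value rests on its bright probe set: averaged with the dim 230300_at it was −0.16 and not called. PSMB8 was the only core gene called higher in A549, 2.28-fold (−1.19 ± 0.45, SD, n = 2 siRNAs; limma adjusted p = 0.00561). PSMA4, PSMA3, PSMB3 and PSMA1 had mean values of −0.46, −0.23, −0.20 and −0.09 and did not pass.

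Among regulatory genes, PSMD4 was 1.87-fold higher in H1299 (mean log2 0.90 ± 0.14, SD, n = 2 siRNAs; limma adjusted p = 0.00330). PSMC1 and PSMC2 were called higher in H1299 as well, at 0.56 and 0.51. PSMD10 was 1.78-fold higher in A549, with 2525 and 2729 there and 1500.4 and 1422 in H1299 (−0.83 ± 0.13; limma adjusted p = 0.00412). PSMD10 encodes gankyrin, 1 of the base chaperones. PSMD11, PSMD3 and PSMD6, lid genes, were called higher in A549 at −0.81, −0.72 and −0.39. The PSMD11 call was lost when its probe sets were averaged (−0.40; limma adjusted p = 0.0508), and that of PSMD6 after quantile normalization (limma adjusted p = 0.0567). PSMD12 and PSMD1 were at 0.55 and 0.42 and did not pass. The second PSMD12 probe set was at −0.56 under scramble and −0.78 under hMOF siRNA, the reverse of the first. PSMC3 itself did not differ past the threshold (−0.07 ± 0.30; limma adjusted p = 0.707).

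**Figure D5:**
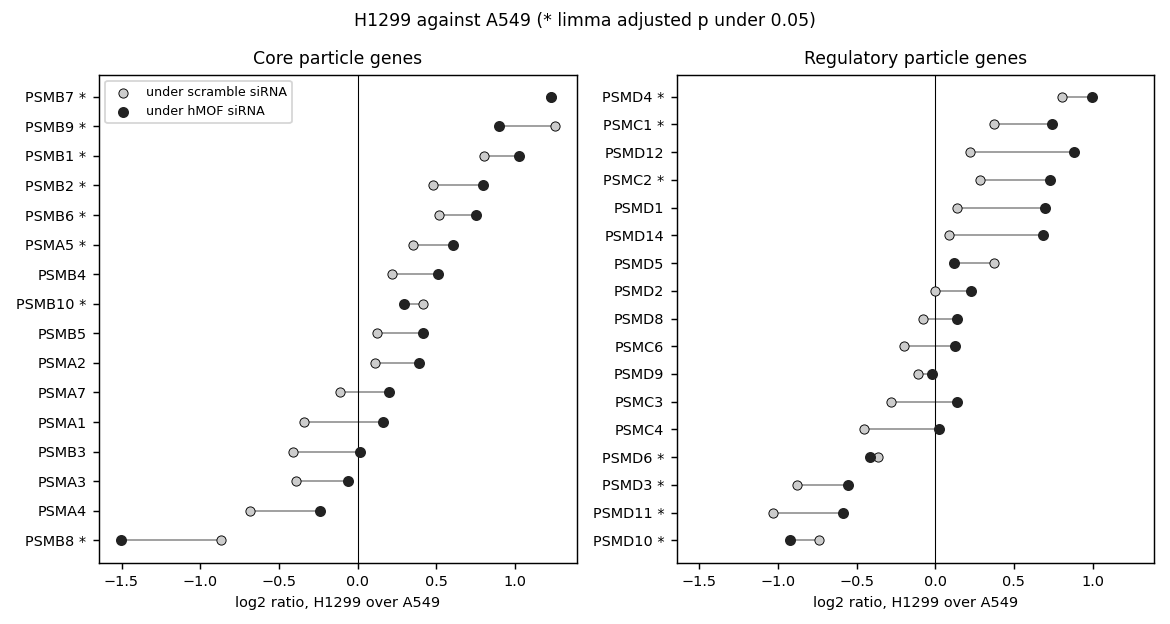
Log2 ratio of H1299 over A549 under scramble (grey) and hMOF siRNA (black) for the core genes (left) and regulatory genes (right), ordered by their mean; a star marks genes called by limma. PSMB7 and PSMD4 lie highest, PSMB8 lies lowest at −0.87 and −1.50, and most black points lie to the right of the grey ones.

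PSMB8 and PSMB9 lie close together on chromosome 6, in the region of the TAP1 and TAP2 transporter genes. They differed between the lines in opposite directions. TAP1, which with TAP2 carries peptides into the endoplasmic reticulum, was higher in H1299 (log2 0.69 and 0.65 under scramble and hMOF siRNA; limma adjusted p = 0.00655). TAP2 was higher there too (1.87 and 1.95; limma adjusted p = 0.000325), also on its second probe set (1.38 and 1.62). PSMB9 thus went with both transporter genes between lines, and PSMB8 went against them. Each of PSMB8 and PSMB9 has 1 probe set, so neither value has a check from another.

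The start regions of the immunoproteasome genes are shown for this contrast, cut as above, with capitals also marking the interferon-stimulated response element on either strand, searched as GAAA, any 2 bases and GAAA.
PSMB8, chr6:32844028-32844167, minus strand: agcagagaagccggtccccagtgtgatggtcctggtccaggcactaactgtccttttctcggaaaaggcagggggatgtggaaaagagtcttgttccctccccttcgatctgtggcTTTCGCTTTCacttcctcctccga
PSMB9, chr6:32854072-32854211, plus strand: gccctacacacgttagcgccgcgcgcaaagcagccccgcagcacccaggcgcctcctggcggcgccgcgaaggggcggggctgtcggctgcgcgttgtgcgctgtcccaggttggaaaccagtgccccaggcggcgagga
PSMB10, chr16:67936831-67936970, minus strand: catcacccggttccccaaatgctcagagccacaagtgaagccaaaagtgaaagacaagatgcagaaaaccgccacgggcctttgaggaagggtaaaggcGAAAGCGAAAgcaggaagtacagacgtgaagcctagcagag

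PSMB8 and PSMB10 each hold 1 match and share its letters, GAAAGCGAAA, on opposite strands relative to the gene. PSMB9 holds none in this stretch, and neither does the window of the other annotated start of PSMB8, which is not shown. The element occurred in 12.1% of the proteasome windows, against 3.57% of all. Besides PSMB8 and PSMB10, PSMA4 and PSMB4 held a match. Of the genes sharing the letters, PSMB8 was higher in A549 and PSMB10 in H1299 (mean log2 −1.19 and 0.35). A match describes letters only, and its part in the line differences was not tested.

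Agreement between probe sets bounds all these values. Of the 33 genes, 17 had 1 probe set above the signal minimum and 16 had more. Among those 16, all probe sets of a gene had the same sign of the siRNA ratio in 10 genes in A549 and in 12 in H1299. For the ratio of lines it was 12 genes under scramble and 11 under hMOF siRNA.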

How the data were processed

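Expression was measured on 4 Affymetrix arrays from 6 ug of total RNA each, 1 per line and siRNA. The authors deposited 1 linear intensity (MAS5 signal) for each probe set, according to the submitters' processing notes. No source used here gives the version or the scaling target. MAS5 estimates are least stable at low signal. Groups follow the source names. The treatment tag contradicts them on 2 arrays and was not used.

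Of 54675 probe sets, 41091 had 1 gene in the platform annotation, 1801 several and 11721 none, and 62 were controls; symbols were checked against RefSeq (GRCh38.p14) and 0 changed. The offset of 29.06 is the 20th percentile of all signals, and the minimum mean signal of 78.1 the 50th percentile of probe set means. This left 12830 genes. limma 3.58.1 (R 4.3.3, lmFit and eBayes) was fitted across all genes with terms for line and siRNA, with Benjamini-Hochberg adjustment and a threshold of 0.05. It had 1 residual degree of freedom and 3.74 prior ones. With 1 array per line and siRNA, its residual is how far the siRNA ratios of the lines differ. That cannot be told apart from array-to-array spread, which may be technical, and the p values cover no more than this. The procedure was tested on simulated data drawn from its own fitted model, with a pass mark only on the size of planted ratios. That run is no check of the calls made here.

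The proteasome genes and all lists were chosen with earlier results of these data known. Named were KAT8, called genes, the 5 highest and 5 lowest mean ratios per particle and comparison, the catalytic and immunoproteasome genes, genes under the minimum, the 5 largest differences between lines, and called or extreme genes of the pathway list. PSMA6, PSMB11, PSMC5, PSMD7 and PSMD13, and pathway genes with no probe set of their own in the annotation used, are not analysed here. Alternatives were offsets of 0 and of the 40th percentile (56.5), no minimum or the 70th percentile (179), quantile normalization, median centring, averaged probe sets, no _x_at probe sets, no block, eBayes with trend and, added after the data were seen, loess on signal and the size of 1.25-fold. Figures used matplotlib 3.10.9.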

Additional observations from a re-analysis of the deposited data

Results flagged for a closer look

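Of the 33 proteasome genes tested, 8 had siRNA ratios of opposite sign in the 2 lines, each from 1 array pair, and the difference was not tested. Among all genes tested, 31.7% had opposite signs, so this count is not above that background. The H1299 minus A549 difference in log2 ratio was 0.50 for PSMA1, 0.28 for PSMA2, 0.45 for PSMA4, 0.56 for PSMD1, 0.66 for PSMD12 and 0.60 for PSMD14. It was −0.12 for PSMB10 and −0.19 for PSMD10. Some of these signs rest on ratios close to 0. The A549 ratio was −0.0024 for PSMA4, −0.03 for PSMA1, −0.04 for PSMD12 and −0.05 for PSMD14. The H1299 ratio of PSMB10 was −0.01. Some depend on the probe set. Both other PSMA1 probe sets were above 0 in A549 and H1299, at 0.04 and 0.50 (201676_x_at) and 0.09 and 0.51 (210759_s_at). The second PSMD12 probe set, 202353_s_at, had both signs reversed, at 0.16 in A549 and −0.06 in H1299. Second probe sets of PSMA2, PSMD1 and PSMD10 kept the opposite signs.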

How the results depend on the processing

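With hMOF siRNA, the rise of PSMC3 stayed past the threshold under all 10 alternatives that kept the block, with mean log2 values from 1.497 to 1.60 and limma adjusted p from 0.0155 to 0.0346. NFE2L1 held under the same 10 (0.84 to 0.93; adjusted p 0.0251 to 0.0480). Without the block for line, limma called 0 of all 12830 genes, KAT8 included, and 2.73% had an unadjusted p under 0.05, among them 1 of the 33 proteasome genes. The adjusted p was then 0.9999 for each of KAT8, PSMC3, NFE2L1 and PSME1. The median siRNA ratio over both lines was 0.22 for core and 0.28 for regulatory genes, and leaving out a line gave 0.06 to 0.36 and 0.11 to 0.50. Genes 1.25-fold higher in A549 numbered 6 after quantile normalization and 4 after loess on signal, against 2, and 19 in H1299 under both, against 22. Between lines, core genes higher in A549 numbered 2 with the 40th percentile offset, quantile normalization, averaged probe sets, eBayes with trend and loess, against 1. Regulatory genes higher in H1299 numbered 5 after quantile normalization, against 3. Without the block, 3 core genes were higher in H1299, and 1 and 2 regulatory genes were higher in H1299 and A549. The regulatory median of H1299 over A549, 0.03, was −0.080 to 0.14 when a siRNA was left out, and the core median, 0.31, was 0.17 to 0.41. PSMA5 reversed to −0.16 when its probe sets were averaged. The PSMB10 call was lost with no offset, with trend and with loess. The cause of these shifts was not tested. The number of arrays limits every value.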
